A study of Homo sapiens with 18 samples.

Results

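The genes described here are 44 genes of mitosis and the kinetochore: the kinase and cyclins that start mitosis, proteins that join chromosomes to the spindle, the motors and binding proteins of the spindle, and the machinery that ends mitosis. They were chosen by name as regulators of the G2 and M phases and as parts of the kinetochore and spindle, with earlier results of these data known. All 44 were found among the 23713 rows of the deposited table, and all 44 passed the filter on low values that 11051 rows passed. The cells were of the human line MOLM-13, an acute monocytic leukaemia, grown in RPMI medium with serum and antibiotics. They received dTRIM24, IACS-9571 or the solvent DMSO for 24 h or 4 h, which makes 6 groups of 3 samples (18 in all). dTRIM24 is a degrader built from a TRIM24 bromodomain ligand linked to a ligand of the ubiquitin ligase component VHL. IACS-9571 is a ligand of the TRIM24 and BRPF1 bromodomains that has no such second arm. The 24 h and 4 h groups follow the sample titles, time points and series design, although the labels' treatment protocol names 24 h throughout, and no dose is stated in the sources used here.

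Most of these genes are transcribed in a wave that starts in S phase and is highest in G2 and mitosis. In G1 and in resting cells they are held down by the DREAM complex, which binds a short promoter element called the cell cycle genes homology region. Later MYBL2 and then FOXM1 join its MuvB core and turn the genes on, often together with the factor NF-Y at CCAAT boxes. A culture with many dividing cells therefore holds much of these RNAs, and MKI67 protein is used in leukaemia, as in other tumours, to mark dividing cells. In bulk RNA such as this, fewer cells in G2 or mitosis and less RNA of these genes per cell cannot be told apart.

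The table gives 1 mean FPKM for each gene and group. FPKM is a count of sequenced fragments scaled to transcript length and, in its plain form, to the size of the library. With no values per library there is no replicate error and no test of any difference, and depth is unknown. Differences are of log2(FPKM + 1) between 2 group means, a scale on which 1 is the 2-fold threshold and low genes appear to differ less than they do. For scale, 25 spike-in RNAs with at least 5 FPKM in each group had differences with an SD between 0.11 and 0.22 in the 9 comparisons, which cannot replace a replicate error. The spike-in medians lay between 29.7 and 31.7 FPKM in the 6 groups, while the median of the kept genes was 12.4 FPKM in dTRIM24, 9.88 FPKM in IACS-9571 and 9.97 FPKM in DMSO at 24 h. At 4 h that median was 12.1 FPKM in dTRIM24, 12.2 FPKM in IACS-9571 and 12.2 FPKM in DMSO. Column totals lay between 771830 FPKM (IACS-9571 at 24 h) and 1058350 FPKM (DMSO at 4 h). Whether the deposited columns had already been scaled to the spike-ins was not tested. All 11 myeloid markers looked for reached 1 FPKM in at least 1 group, with a summed level between 1815 FPKM (IACS-9571 at 24 h) and 2963 FPKM (DMSO at 4 h), and no marker of 5 for erythroid cells or of 5 for T cells did. Of other markers, PAX5 (3.70 to 5.79 FPKM), KRT8, KRT18 and VIM reached it. ANLN, CCNA2, CDC25C, HMMR, KIF18A, KIF20A, KIF23, KIF2C, KIF4A, NUF2, PLK1 and PRC1 share exon sequence with a gene on the opposite strand, and BUB1B, NUSAP1 and PRC1 with one on the same strand, so their levels may hold fragments of those genes.

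Most of the promoters with an entry carry the element by which this gene set is known. RefSeq (GRCh38.p14) windows of 250 bases before and 50 bases from the start site were on hand for 39 of the 44 genes, as 49 windows, and AURKA, TTK, BIRC5, UBE2C and TPX2 had no entry. The core of the homology region, TTTGAA on either strand, was found in 31 of the 49 windows (63.3%), against 15.2% of all 35116 windows and 10.6% of the 11885 windows of kept genes. CCAAT on either strand was found in 36 of the 49 windows (73.5%), against 34.6% of all windows. GGCGGGAA, a form of the E2F site, was found in 2 of the 49 windows (4.08%), against 3.16% of all windows and 4.84% of the windows of kept genes. Of 44 TTTGAA matches, 34 lay on the strand of the gene, and 31 began between 60 bases before and 45 bases after the start site. A site of CDC25C and a site of ECT2 in overlapping windows were counted once per window. Strand and position were not counted over the windows of other genes. The motifs were looked for as exact letters on both strands, TTTGAA and CCAAT on the other strand read TTCAAA and ATTGG, and TTTGAATTGG and CCAATTGG join overlapping motifs. The 150 bases before the start site are shown for the 4 genes that stood highest with dTRIM24 at 24 h (MKI67, CENPF, CENPE and KIF15), for HMMR, highest with dTRIM24 at 4 h, and for PLK1 and CDC20, among the lowest with dTRIM24 at 4 h; capitals mark TTTGAA and CCAAT on either strand.
MKI67: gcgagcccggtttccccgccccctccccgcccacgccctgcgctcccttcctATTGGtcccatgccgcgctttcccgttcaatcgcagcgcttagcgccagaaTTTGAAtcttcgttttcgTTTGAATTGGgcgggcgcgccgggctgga
CENPF: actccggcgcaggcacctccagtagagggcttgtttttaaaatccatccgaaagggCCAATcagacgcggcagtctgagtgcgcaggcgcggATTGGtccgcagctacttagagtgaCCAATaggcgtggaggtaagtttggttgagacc
CENPE: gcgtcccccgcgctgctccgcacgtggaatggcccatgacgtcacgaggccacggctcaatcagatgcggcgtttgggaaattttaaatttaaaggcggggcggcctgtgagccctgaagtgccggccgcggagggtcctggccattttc
KIF15: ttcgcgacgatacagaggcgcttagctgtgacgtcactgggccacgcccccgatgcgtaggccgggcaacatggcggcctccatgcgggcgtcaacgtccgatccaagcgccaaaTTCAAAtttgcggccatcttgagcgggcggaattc
HMMR: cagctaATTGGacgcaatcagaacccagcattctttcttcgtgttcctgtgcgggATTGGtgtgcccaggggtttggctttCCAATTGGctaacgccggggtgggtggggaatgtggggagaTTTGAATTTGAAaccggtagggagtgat
PLK1: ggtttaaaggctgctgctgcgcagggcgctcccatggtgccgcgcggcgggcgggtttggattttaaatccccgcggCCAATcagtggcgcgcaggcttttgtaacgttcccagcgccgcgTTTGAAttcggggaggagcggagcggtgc
CDC20: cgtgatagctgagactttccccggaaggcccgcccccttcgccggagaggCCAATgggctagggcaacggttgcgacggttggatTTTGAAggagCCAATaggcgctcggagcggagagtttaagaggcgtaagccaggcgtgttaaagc
The stretches lie at chr10:128126424-128126573 (minus strand) for MKI67, chr1:214603045-214603194 (plus strand) for CENPF, chr4:103198344-103198493 (minus strand) for CENPE, chr3:44761644-44761793 (plus strand) for KIF15, chr5:163460482-163460631 (plus strand) for HMMR, chr16:23678739-23678888 (plus strand) for PLK1 and chr1:43358831-43358980 (plus strand) for CDC20. MKI67 and HMMR have 2 TTTGAA each in these stretches, and KIF15, PLK1 and CDC20 have 1 each. CENPF has 3 CCAAT boxes here and its TTTGAA 41 bases after the start site, and CENPE has neither motif, as is also true of the windows of KIF2C and TACC3. The genes that stood highest with dTRIM24 at 24 h thus differ among themselves in the number and place of these letters.

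**Figure D1:**
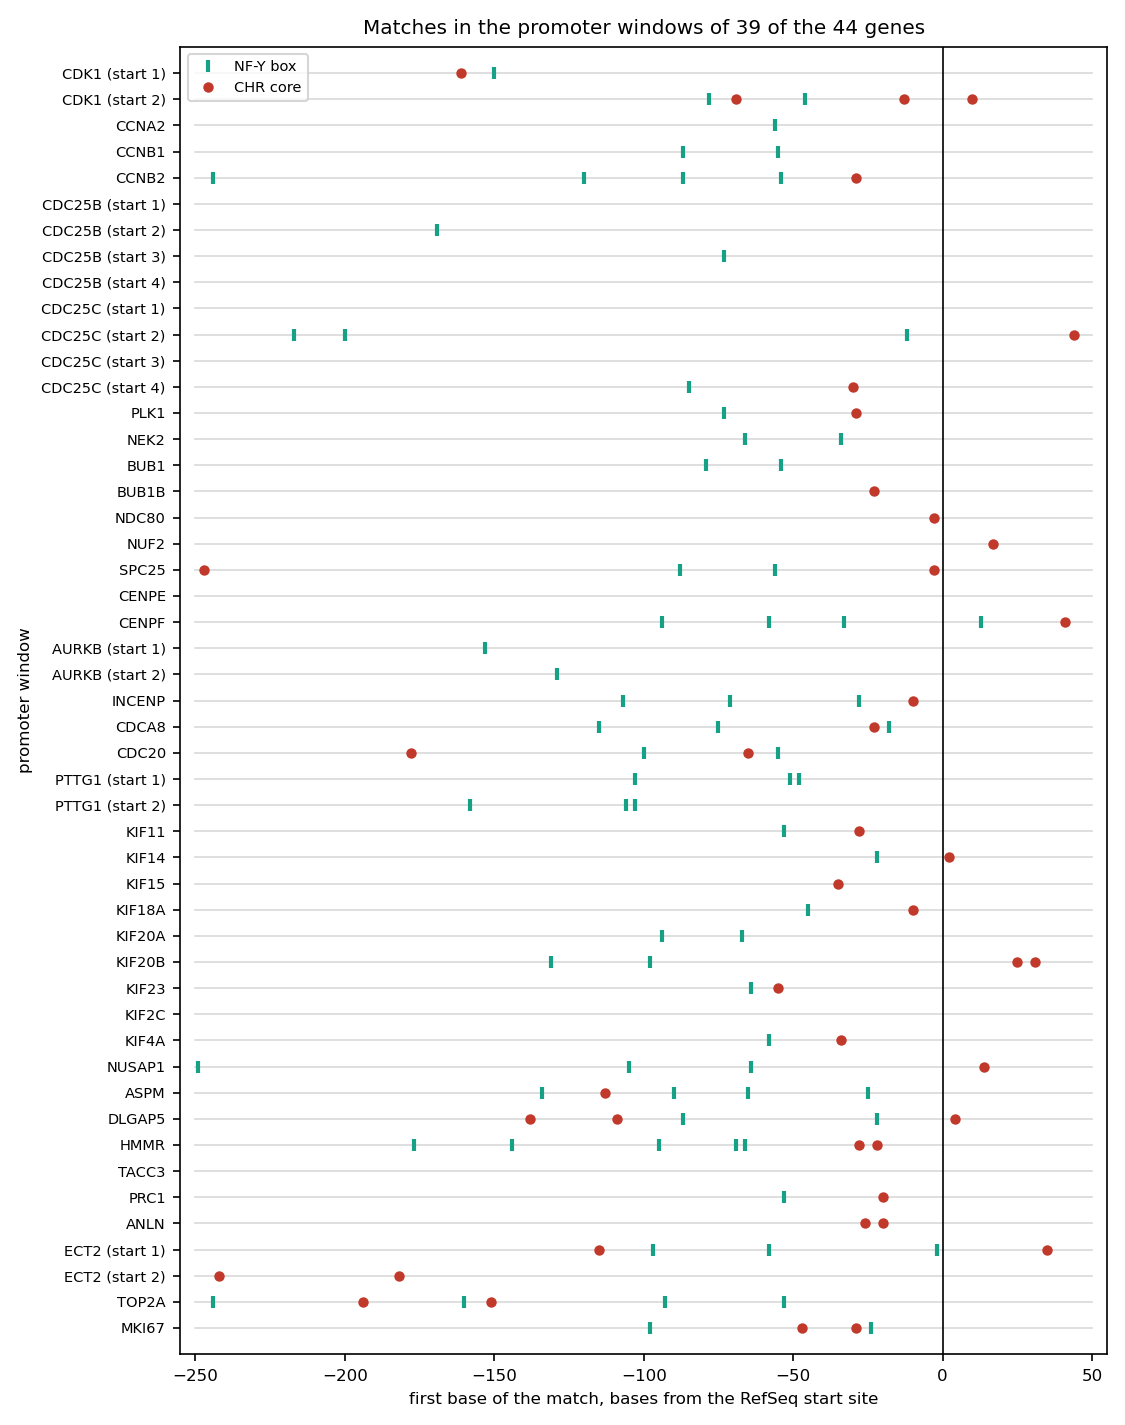
Positions of TTTGAA (red points, CHR core) and CCAAT (green bars, NF-Y box) on either strand in the 49 RefSeq promoter windows of 39 genes, in bases from the start site (0), 1 line per window. The red points gather near the start site, 31 of 44 of them between 60 before and 45 after it, and the lines of CENPE, KIF2C, TACC3 and some CDC25B and CDC25C windows are empty.

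As levels, the 44 genes covered a wide range, and dTRIM24 at 24 h held the highest 24 h value of each. Their summed level was 2349 FPKM in dTRIM24, 1828 FPKM in IACS-9571 and 1981 FPKM in DMSO at 24 h, and 2255 FPKM in dTRIM24, 2290 FPKM in IACS-9571 and 2256 FPKM in DMSO at 4 h. Each sum was between 0.213% and 0.241% of its column's total. PTTG1, UBE2C, CDK1 and TOP2A stood among the highest and CENPE, CDC25C, KIF18A and KIF15 among the lowest. Most kept genes lay the same way: all 44 members, and 95.8% of kept genes, had their highest 24 h value in dTRIM24. On the log2(FPKM + 1) scale no member passed 2-fold in any of the 9 comparisons.

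**Figure D2:**
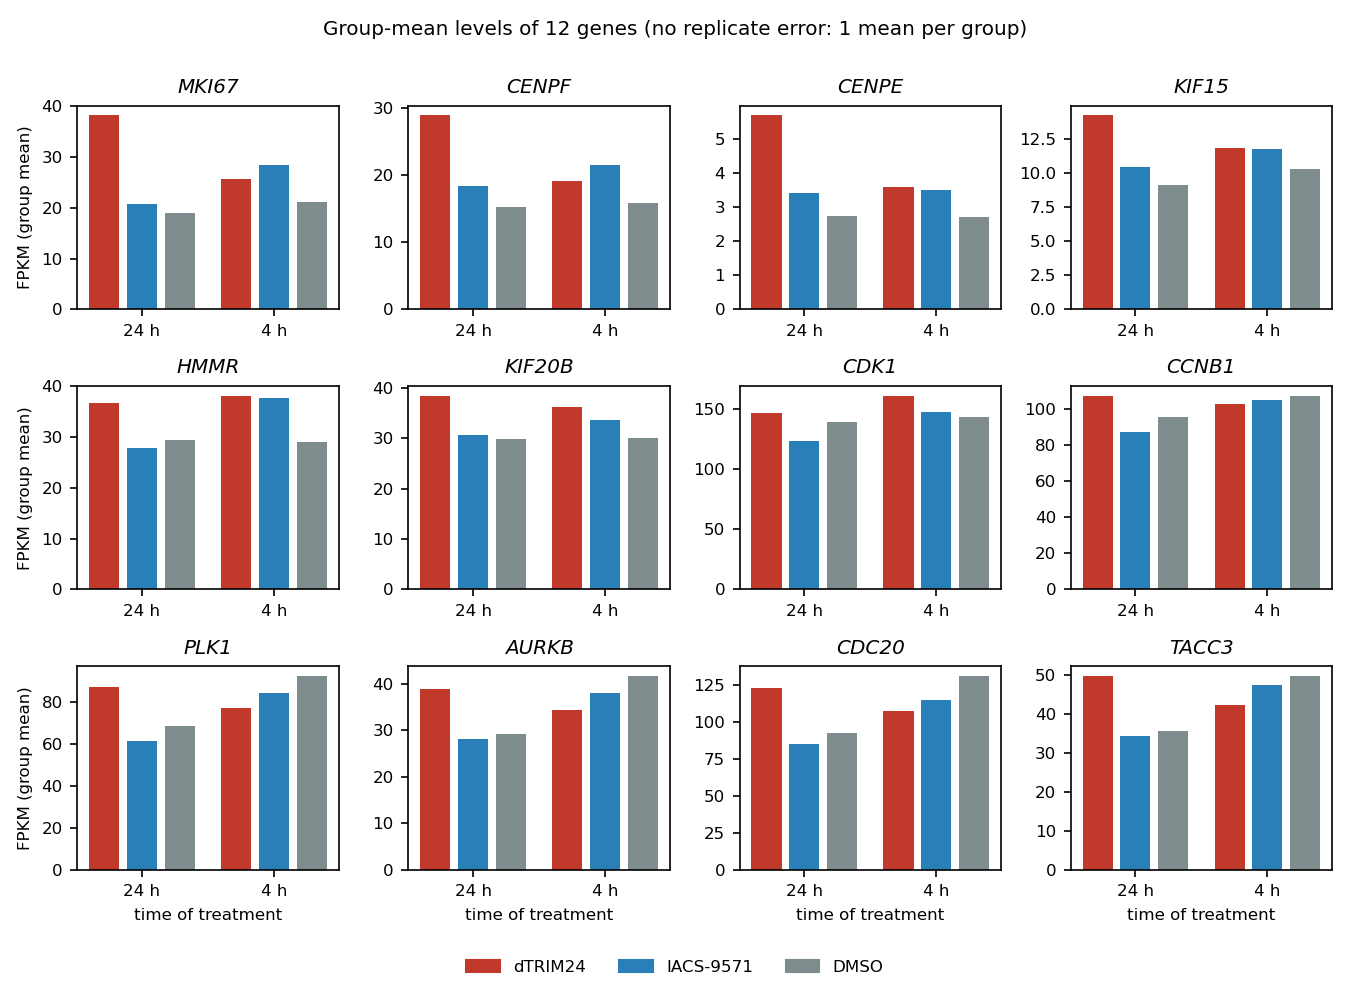
Mean FPKM of 12 of the 44 genes with dTRIM24 (red), IACS-9571 (blue) and DMSO (grey) at 24 h and 4 h, 1 bar per group mean, each axis starting at 0 with its own range, without error bars because there is 1 mean per group. MKI67, CENPF, CENPE and KIF15 have their tallest bar in dTRIM24 at 24 h, and PLK1, AURKB, CDC20 and TACC3 in DMSO at 4 h.

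With dTRIM24 for 24 h, MKI67, CENPF and CENPE stood farther above DMSO than any other member, by 0.97, 0.88 and 0.83 on the log2 scale. KIF15 followed at 0.59, and the other 40 members lay between 0.06 and 0.48. The median of the 44 differences was 0.27 and that of all kept genes 0.26. No member passed 2-fold on the log2(FPKM + 1) scale, as 0.136% of kept genes did upward and 0.0633% downward, although the plain ratio of FPKM, dTRIM24 over DMSO, was 2.07 for CENPE and just over 2 for MKI67. CENPE passed 2-fold at a pseudocount of 0.1 FPKM and MKI67 with the columns rescaled to the spike-ins. The next steps down were passed by a few: 4 members passed 1.5-fold upward (4.74% of kept genes did), and 15 passed the mild threshold of 0.32 on the log2 scale (36.0%). All 44 differences were above 0, as were 96.8% of kept genes, but under median centring of the columns 19 were above 0 and 25 below. Against IACS-9571 at 24 h, MKI67 (0.85), CENPF (0.62) and CENPE (0.60) again were the 3 members past 1.5-fold (3.18% of kept genes). That comparison uses the same dTRIM24 values, so it is not a second measurement of them. KIF15 lay at 0.42 there.

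MKI67 encodes Ki-67, the protein that coats mitotic chromosomes and keeps them apart. It had 38.2 FPKM in dTRIM24, 20.8 FPKM in IACS-9571 and 19.1 FPKM in DMSO at 24 h, and 25.8 FPKM in dTRIM24, 28.5 FPKM in IACS-9571 and 21.2 FPKM in DMSO at 4 h. Its 24 h value in dTRIM24 was the highest of the 6 and its values in DMSO and IACS-9571 at 24 h and in DMSO at 4 h were the lowest. Counting MKI67 itself, 18 of the 11051 kept genes had a difference as large between dTRIM24 and DMSO at 24 h. CENPF, a large protein of the outer kinetochore and nuclear matrix, had 28.8 FPKM in dTRIM24, 18.4 FPKM in IACS-9571 and 15.3 FPKM in DMSO at 24 h, and 19.0 FPKM in dTRIM24, 21.5 FPKM in IACS-9571 and 15.8 FPKM in DMSO at 4 h. CENPE, a kinesin that slides chromosomes along spindle fibres toward the cell's equator, had 5.69 FPKM in dTRIM24, 3.40 FPKM in IACS-9571 and 2.75 FPKM in DMSO at 24 h, and 3.60 FPKM in dTRIM24, 3.51 FPKM in IACS-9571 and 2.72 FPKM in DMSO at 4 h. Both were again highest in dTRIM24 at 24 h and lowest in DMSO, with IACS-9571 between them at 24 h. Counted the same way, 29 kept genes had a difference at or above that of CENPF, and 41 at or above that of CENPE.

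KIF15, a kinesin that helps hold the spindle bipolar, had 14.2 FPKM in dTRIM24, 10.4 FPKM in IACS-9571 and 9.17 FPKM in DMSO at 24 h, and 11.8 FPKM in dTRIM24, 11.8 FPKM in IACS-9571 and 10.3 FPKM in DMSO at 4 h. It sat at the edge of the 1.5-fold line, which 522 kept genes reached at its value or above. Values with the trend on GC content taken out, a cubic curve fitted over the kept genes with known content, were 0.72 for MKI67, 0.70 for CENPF, 0.69 for CENPE and 0.41 for KIF15. Under median centring they were 0.68 for MKI67, 0.59 for CENPF, 0.55 for CENPE and 0.30 for KIF15. The direction of these 4 held under both, while the median of the 44 became 0.04 without the GC trend and -0.02 under centring.

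GC content moved with the groups over all genes, and length with the differences of the members. Over 10771 kept genes with a reference transcript, the dTRIM24 against DMSO difference at 24 h ran with GC content at a Spearman correlation of 0.61, and over the 44 members at 0.21. Of the kept genes with a protein-coding transcript, the 2083 richest in GC (above 58.3%) had 332 past 1.5-fold (15.9%). The 2083 poorest (up to 40.9%) had 11 (0.528%). CENPE (35.3% GC) and CENPF (40.8% GC) are among these poorest. MKI67 has 48.3% GC. The reference transcripts of MKI67 (12678 nt), ASPM (10887 nt), CENPF (10307 nt) and CENPE (8612 nt) are the 4 longest of the members. The difference ran with length at a Spearman correlation of 0.37 over the members and -0.03 over all kept genes with a reference transcript. These 4 had a median of 0.86, and the members in the 4 bins of shorter transcripts had medians between 0.22 and 0.35. Of 821 kept genes with a protein-coding transcript of 8000 nt or more, 37 passed 1.5-fold (4.51%), with a median of 0.25. ASPM, as long as CENPF, was higher by 0.30. For IACS-9571 against DMSO at 24 h, the Spearman correlation with length over the members was 0.55. At 4 h it was 0.53 for IACS-9571 and 0.47 for dTRIM24 against DMSO. Over kept genes with a reference transcript the same correlations were 0.17, 0.24 and 0.26, in that order. The part of length and GC content in these differences was not tested further.

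**Figure D3:**
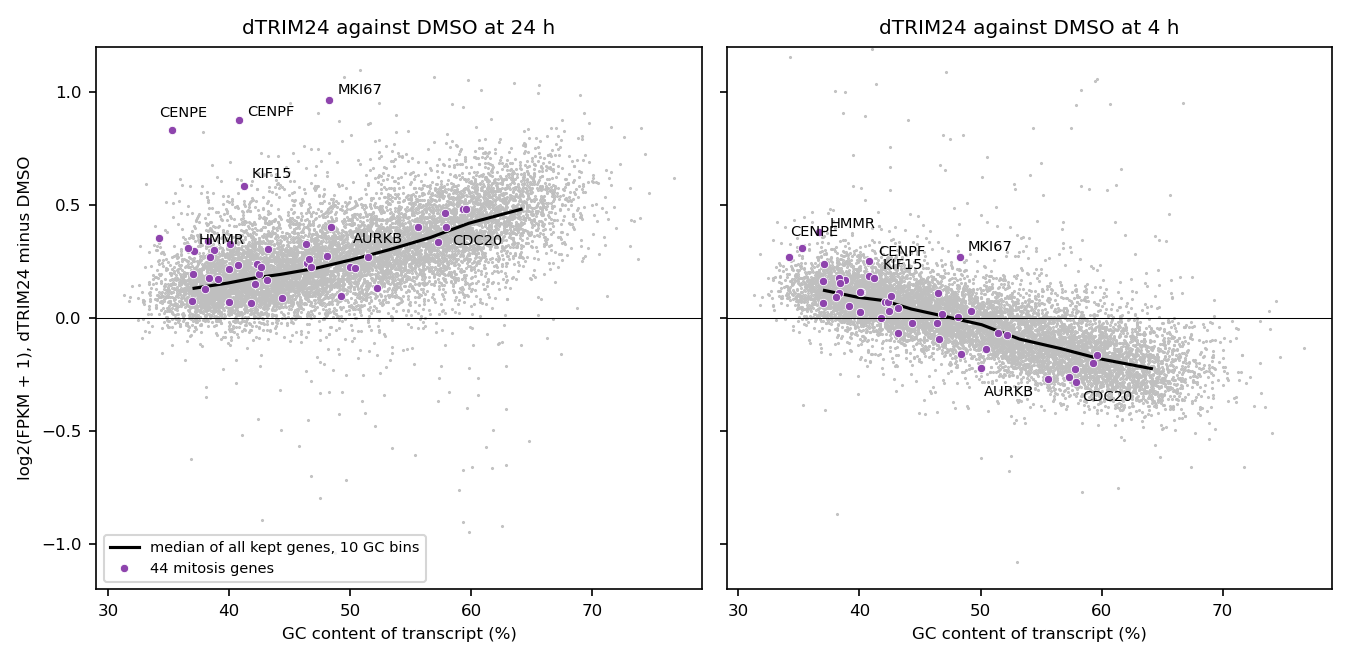
Difference of log2(FPKM + 1), dTRIM24 minus DMSO, at 24 h (left) and 4 h (right) against transcript GC content in percent, with kept genes in grey, the 44 mitosis genes in purple and the median of kept genes in 10 GC bins as a line. At 24 h MKI67, CENPF and CENPE lie far above the line, and at 4 h the line falls toward high GC; the axis ends at 1.2 either way, which leaves out 10 genes at 24 h and 61 at 4 h.

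The genes that switch cells into mitosis stood close to the rest. CDK1, the kinase that starts mitosis, had 147 FPKM in dTRIM24, 123 FPKM in IACS-9571 and 139 FPKM in DMSO at 24 h, and 161 FPKM in dTRIM24, 148 FPKM in IACS-9571 and 144 FPKM in DMSO at 4 h. Its difference between dTRIM24 and DMSO was 0.08 at 24 h and 0.16 at 4 h. CCNA2 and CCNB1, cyclins that bind CDK1, differed there by 0.15 and 0.17 at 24 h. CCNB1 had 107 FPKM in dTRIM24, 86.9 FPKM in IACS-9571 and 95.3 FPKM in DMSO at 24 h, and 102 FPKM in dTRIM24, 105 FPKM in IACS-9571 and 107 FPKM in DMSO at 4 h. The 6 genes of this role (with CCNB2 and the phosphatases CDC25B and CDC25C, which remove the inhibitory phosphates of CDK1) had a median of 0.16 with dTRIM24 at 24 h, below that of all genes. CCNA2 had a highest value of 92.2 FPKM (dTRIM24 at 4 h) and a lowest value of 69.6 FPKM (IACS-9571 at 24 h), CCNB2 had a lowest value of 82.3 FPKM (IACS-9571 at 24 h) and a highest value of 106 FPKM (IACS-9571 at 4 h) and CDC25C had a highest value of 9.95 FPKM (IACS-9571 at 4 h) and a lowest value of 6.74 FPKM (DMSO at 24 h). CDC25B (59.3% GC) differed from DMSO by 0.48 with dTRIM24 at 24 h, and by 0.09 with the GC trend taken out. It had 14.6 FPKM in dTRIM24, 10.9 FPKM in IACS-9571 and 10.2 FPKM in DMSO at 24 h, and 12.7 FPKM in dTRIM24, 15.4 FPKM in IACS-9571 and 14.7 FPKM in DMSO at 4 h, so that its highest value was that of IACS-9571 at 4 h. Of the entry kinases, PLK1, which drives centrosome maturation and mitotic entry, had 87.2 FPKM in dTRIM24, 61.6 FPKM in IACS-9571 and 68.8 FPKM in DMSO at 24 h, and 77.2 FPKM in dTRIM24, 84.5 FPKM in IACS-9571 and 92.7 FPKM in DMSO at 4 h. In PLK1 the highest of the 6 values was that of DMSO at 4 h. AURKA had a highest value of 56.6 FPKM (dTRIM24 at 24 h) and a lowest value of 42.8 FPKM (IACS-9571 at 24 h). This kinase of spindle poles differed from DMSO by 0.26 with dTRIM24 at 24 h. The centrosome kinase NEK2 had the smallest of the 44 differences there, at 0.06.

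Kinetochore and checkpoint genes had all 8 values above DMSO with dTRIM24 at 4 h, when 47.8% of kept genes were. Their median there was 0.14, and 0.03 with the GC trend taken out. All 8 also lay above DMSO with IACS-9571 at 4 h, as did 50.1% of kept genes. Their median with IACS-9571 was 0.13, and 0.08 with the trend taken out. Both comparisons use the same DMSO values. With dTRIM24 at 24 h the median of the 8 was 0.30, and 0.13 with the trend taken out. BUB1, BUB1B and TTK, kinases and relatives that hold anaphase back until chromosomes are attached, differed by 0.20, 0.30 and 0.23 at 24 h. NDC80, NUF2 and SPC25, subunits of the complex that grips microtubule ends, differed by 0.33, 0.30 and 0.07. NUF2 had 52.6 FPKM in dTRIM24, 39.9 FPKM in IACS-9571 and 42.5 FPKM in DMSO at 24 h, and 50.4 FPKM in dTRIM24, 48.5 FPKM in IACS-9571 and 44.7 FPKM in DMSO at 4 h. Of these subunits SPC25 was near the bottom of the 44 and NUF2 and NDC80 above their median, a gap that was not tested. The SD of the spike-in differences in that comparison was 0.17. SPC25 had a highest value of 28.4 FPKM (dTRIM24 at 4 h) and a lowest value of 22.5 FPKM (IACS-9571 at 24 h), and NDC80 had a highest value of 27.4 FPKM (IACS-9571 at 4 h) and a lowest value of 21.3 FPKM (DMSO at 24 h). Of the checkpoint genes, BUB1 had a highest value of 62.3 FPKM (dTRIM24 at 24 h) and a lowest value of 51.7 FPKM (IACS-9571 at 24 h), BUB1B had a highest value of 38.7 FPKM (dTRIM24 at 24 h) and a lowest value of 31.2 FPKM (DMSO at 24 h) and TTK had a highest value of 51.4 FPKM (dTRIM24 at 24 h) and a lowest value of 40.1 FPKM (IACS-9571 at 24 h).

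The chromosomal passenger complex, which corrects wrong attachments and later works in cytokinesis, ran the other way at 4 h. All 4 genes (the kinase AURKB, the scaffold INCENP, BIRC5, which encodes survivin, and CDCA8, which encodes borealin) lay below DMSO with dTRIM24 at 4 h (52.2% of kept genes lay below). Their median was -0.12, and -0.03 with the GC trend taken out. AURKB had 39.0 FPKM in dTRIM24, 28.1 FPKM in IACS-9571 and 29.2 FPKM in DMSO at 24 h, and 34.4 FPKM in dTRIM24, 38.0 FPKM in IACS-9571 and 41.8 FPKM in DMSO at 4 h. INCENP had 24.0 FPKM in dTRIM24, 17.1 FPKM in IACS-9571 and 16.9 FPKM in DMSO at 24 h, and 20.3 FPKM in dTRIM24, 23.3 FPKM in IACS-9571 and 22.9 FPKM in DMSO at 4 h. In dTRIM24 at 24 h AURKB did not reach its own DMSO value of 4 h, while INCENP lay slightly above its DMSO value of 4 h. BIRC5 had a lowest value of 42.6 FPKM (IACS-9571 at 24 h) and a highest value of 57.9 FPKM (DMSO at 4 h) and CDCA8 had a lowest value of 25.3 FPKM (IACS-9571 at 24 h) and a highest value of 33.1 FPKM (DMSO at 4 h). With dTRIM24 at 24 h BIRC5 and CDCA8 differed from DMSO by 0.13 and 0.27, against 0.40 for AURKB and 0.48 for INCENP. With the GC trend taken out these differences were -0.16 for BIRC5, -0.01 for CDCA8, 0.07 for AURKB and 0.09 for INCENP. The median of the 4 was 0.34, and 0.03 with the trend taken out.

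Of the 3 genes that end mitosis, CDC20 and UBE2C also lay below DMSO with dTRIM24 at 4 h, as did 52.2% of kept genes. They differed by -0.29 and -0.22, and by -0.17 and -0.21 with the GC trend taken out. PTTG1 differed by 0.03, and by 0.04 with the trend taken out. CDC20, which activates the anaphase-promoting complex, had 123 FPKM in dTRIM24, 84.9 FPKM in IACS-9571 and 92.9 FPKM in DMSO at 24 h, and 108 FPKM in dTRIM24, 115 FPKM in IACS-9571 and 131 FPKM in DMSO at 4 h. UBE2C, the ubiquitin-conjugating enzyme of that complex, had 127 FPKM in dTRIM24, 91.4 FPKM in IACS-9571 and 108 FPKM in DMSO at 24 h, and 116 FPKM in dTRIM24, 121 FPKM in IACS-9571 and 136 FPKM in DMSO at 4 h. PTTG1, securin, which holds separase in check until anaphase, had 176 FPKM in dTRIM24, 145 FPKM in IACS-9571 and 164 FPKM in DMSO at 24 h, and 170.4 FPKM in dTRIM24, 173 FPKM in IACS-9571 and 167 FPKM in DMSO at 4 h. CDC20 and UBE2C were highest in DMSO at 4 h, and PTTG1 varied little outside IACS-9571 at 24 h. PTTG1 has near copies that could share its reads: PTTG2 (0.255 to 0.556 FPKM) and PTTG3P (0.220 to 0.567 FPKM) were low, and how fragments were split among them is not known, so all 3 values are uncertain.

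The 9 kinesins, motors that move along microtubules, had a median of 0.33 with dTRIM24 at 24 h and 0.07 at 4 h. KIF20B, needed for the last cut between daughter cells, had 38.5 FPKM in dTRIM24, 30.6 FPKM in IACS-9571 and 29.9 FPKM in DMSO at 24 h, and 36.3 FPKM in dTRIM24, 33.7 FPKM in IACS-9571 and 30.0 FPKM in DMSO at 4 h. KIF20A, which carries passenger proteins to the spindle midzone, had 26.6 FPKM in dTRIM24, 19.2 FPKM in IACS-9571 and 19.9 FPKM in DMSO at 24 h, and 22.1 FPKM in dTRIM24, 24.3 FPKM in IACS-9571 and 24.8 FPKM in DMSO at 4 h. KIF11, the motor that pushes spindle poles apart, differed by 0.18 at 24 h, and KIF2C, which takes microtubule ends apart, by 0.22. KIF14, KIF18A, KIF23 and KIF4A differed by 0.34, 0.20, 0.24 and 0.33. KIF11 had a highest value of 62.6 FPKM (dTRIM24 at 4 h) and a lowest value of 48.8 FPKM (IACS-9571 at 24 h), KIF2C had a lowest value of 36.4 FPKM (IACS-9571 at 24 h) and a highest value of 48.6 FPKM (DMSO at 4 h) and KIF14 had a highest value of 18.2 FPKM (dTRIM24 at 24 h) and a lowest value of 13.6 FPKM (IACS-9571 at 24 h). KIF18A had a highest value of 9.72 FPKM (dTRIM24 at 24 h) and a lowest value of 7.29 FPKM (IACS-9571 at 24 h), KIF23 had a highest value of 22.4 FPKM (dTRIM24 at 24 h) and a lowest value of 17.3 FPKM (IACS-9571 at 24 h) and KIF4A had a highest value of 14.7 FPKM (dTRIM24 at 24 h) and a lowest value of 11.5 FPKM (DMSO at 24 h). Of these 6 motors KIF2C alone was highest in DMSO at 4 h. KIF4A shares much sequence with KIF4B, listed at 0.935 to 1.37 FPKM, so both are uncertain.

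Spindle proteins (TPX2, NUSAP1, ASPM, DLGAP5, HMMR, TACC3 and PRC1) held all 7 values above DMSO with dTRIM24 at 24 h, as did 96.8% of kept genes. Their median was 0.28, and 0.09 with the GC trend taken out. TACC3, which crosslinks spindle fibres with clathrin, was highest at 0.46. With the GC trend taken out TACC3 stood at 0.09, and HMMR was highest of the spindle proteins at 0.16. TACC3 had 49.7 FPKM in dTRIM24, 34.3 FPKM in IACS-9571 and 35.7 FPKM in DMSO at 24 h, and 42.4 FPKM in dTRIM24, 47.3 FPKM in IACS-9571 and 49.8 FPKM in DMSO at 4 h. HMMR, a hyaluronan receptor that also sits on spindle poles, had 36.6 FPKM in dTRIM24, 27.9 FPKM in IACS-9571 and 29.4 FPKM in DMSO at 24 h, and 38.2 FPKM in dTRIM24, 37.7 FPKM in IACS-9571 and 29.1 FPKM in DMSO at 4 h. It was the only member past the mild threshold with dTRIM24 at 4 h, higher by 0.38 (1.85% of kept genes). In HMMR both compounds at 4 h lay above every 24 h value. TPX2, which brings Aurora A to the spindle, differed from DMSO by 0.22 with dTRIM24 at 24 h. The bundling proteins NUSAP1 and PRC1 differed there by 0.23 and 0.28, and DLGAP5, a microtubule binder near chromosomes, by 0.27. TPX2 had a highest value of 77.9 FPKM (dTRIM24 at 24 h) and a lowest value of 62.0 FPKM (IACS-9571 at 24 h), NUSAP1 had a lowest value of 77.1 FPKM (IACS-9571 at 24 h) and a highest value of 100.5 FPKM (IACS-9571 at 4 h) and PRC1 had a lowest value of 55.5 FPKM (IACS-9571 at 24 h) and a highest value of 71.2 FPKM (IACS-9571 at 4 h). DLGAP5 had a highest value of 42.1 FPKM (dTRIM24 at 24 h) and a lowest value of 32.2 FPKM (IACS-9571 at 24 h), and the spindle pole gene ASPM had a highest value of 14.9 FPKM (dTRIM24 at 24 h) and a lowest value of 11.5 FPKM (IACS-9571 at 24 h). The cytokinesis genes ANLN (0.22) and ECT2 (0.13), both needed for the cleavage furrow, were among the smaller differences. ANLN had a highest value of 23.0 FPKM (dTRIM24 at 24 h) and a lowest value of 18.5 FPKM (IACS-9571 at 24 h) and ECT2 had a highest value of 18.3 FPKM (dTRIM24 at 4 h) and a lowest value of 15.2 FPKM (IACS-9571 at 24 h). TOP2A, the enzyme that untangles sister DNA, had 132 FPKM in dTRIM24, 105 FPKM in IACS-9571 and 117 FPKM in DMSO at 24 h, and 125 FPKM in dTRIM24, 125 FPKM in IACS-9571 and 121 FPKM in DMSO at 4 h.

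**Figure D4:**
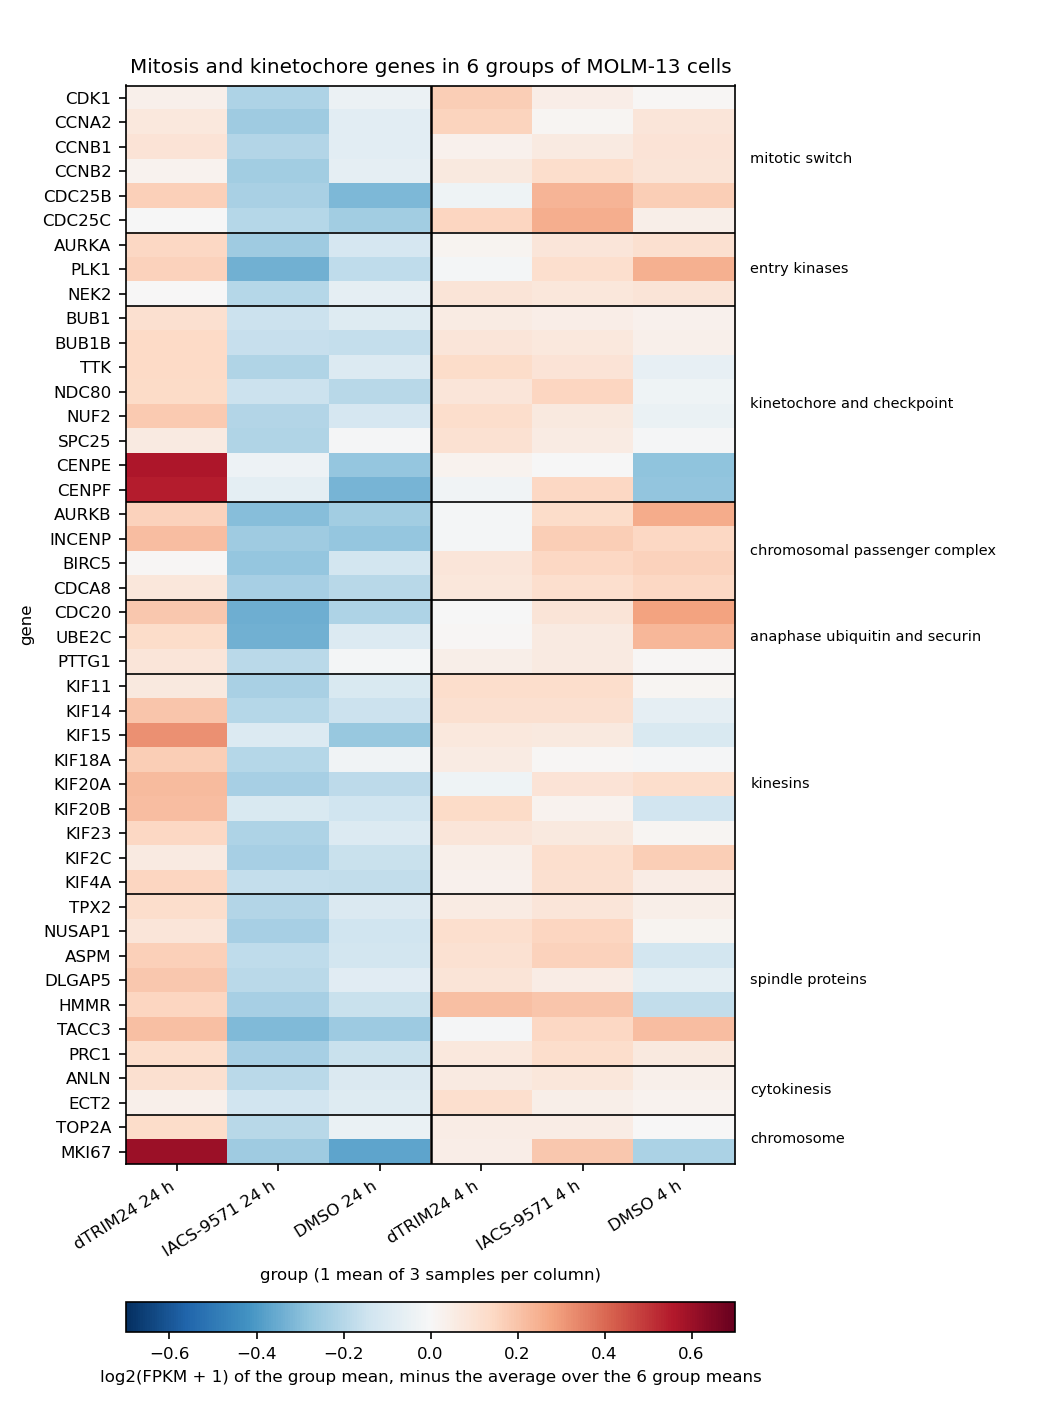
The 44 genes in rows by role and the 6 groups in columns, coloured by log2(FPKM + 1) of the group mean minus the average over the 6 group means (blue below, red above). CENPE, CENPF and MKI67 are the darkest red, in dTRIM24 at 24 h, and the IACS-9571 column at 24 h lies below the average for all 44.

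With IACS-9571 for 24 h the members lay slightly below DMSO. Their median was -0.08, against -0.02 over all kept genes, and 33 of 44 lay below 0 (57.4% of kept genes). No member passed even the mild threshold in either direction; of kept genes 0.0181% passed 2-fold upward and 0.154% downward. UBE2C was lowest at -0.24 and CENPF (0.25) and CENPE (0.23) were highest. IACS-9571 at 24 h held the lowest of all 6 values for 33 members, as for 55.4% of kept genes. The exceptions were CDC25B, CDC25C, BUB1B, NDC80, CENPE, CENPF, INCENP, KIF15, KIF20B, KIF4A and MKI67. dTRIM24 against IACS-9571 at 24 h had a member median of 0.34, against 0.28 over all kept genes, and all 44 lay above 0 (98.4% of kept genes), 29 of them under median centring. No member passed 2-fold (0.199% of kept genes upward and 0.0181% downward), and 24 passed the mild threshold upward (37.7%).

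At 4 h the members lay on both sides of DMSO. Both compounds lay above DMSO for 27 members (36.1% of kept genes) and below it for 11 (38.2% of kept genes): CCNB1, AURKA, PLK1, AURKB, BIRC5, CDCA8, CDC20, UBE2C, KIF20A, KIF2C and TACC3. Both comparisons use the same DMSO values. With dTRIM24 the highest differences after HMMR were those of CENPE (0.31), KIF20B (0.27) and MKI67 (0.27), and the lowest those of CDC20 (-0.29), AURKB (-0.27) and PLK1 (-0.26). With IACS-9571, CENPF (0.42), MKI67 (0.41) and HMMR (0.36) passed the mild threshold (1.74% of kept genes). The median of the members was 0.05 with dTRIM24, with 29 of 44 above DMSO (47.8% of kept genes), and 0.05 with IACS-9571, with 31 of 44 above (50.1% of kept genes). Over all kept genes the medians were -0.01 with dTRIM24 and 0.00 with IACS-9571. With the columns rescaled to the spike-ins, the IACS-9571 median was -0.05, with 15 members above DMSO and 29 below. No member passed 2-fold with dTRIM24 (0.670% of kept genes upward and 0.0181% downward) or with IACS-9571 (0.253% upward and 0.0362% downward). Between the compounds themselves, dTRIM24 against IACS-9571, the median was -0.03, 25 of 44 members lay below 0 (57.5% of kept genes) and none passed the mild threshold or 2-fold (0.561% of kept genes upward and 0.0362% downward). With the columns rescaled to the spike-ins that median was 0.05, with 32 above 0 and 12 below, and with the GC trend taken out it was -0.06, with 4 above and 40 below.

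At 4 h the same values ran with GC content. The Spearman correlation of the dTRIM24 against DMSO difference with GC content was -0.81 over the 44 members and -0.73 over the 10771 kept genes, and for IACS-9571 against DMSO -0.57 and -0.39. CDC20 (57.9%), PLK1 (57.3%), TACC3 (57.8%) and AURKB (55.6%), all lower than DMSO, are among the members richest in GC, and HMMR (36.7%), CENPE (35.3%) and KIF20B (34.2%), all higher, among the poorest. For dTRIM24 the sign of the correlation at 4 h is opposite to that at 24 h. With the trend taken out, the member median for dTRIM24 against DMSO at 4 h was -0.02, with 17 of 44 above 0 and 27 below, against 29 above 0 and 15 below as deposited. For IACS-9571 against DMSO at 4 h the median became 0.01, with 23 above 0 and 21 below, against 31 and 13 as deposited. Genes with TTTGAA in the window (28) and without it (11) had medians of 0.10 and -0.07 with dTRIM24 at 4 h and of 0.29 and 0.22 at 24 h; the GC content of the 2 sets was not matched.

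**Figure D5:**
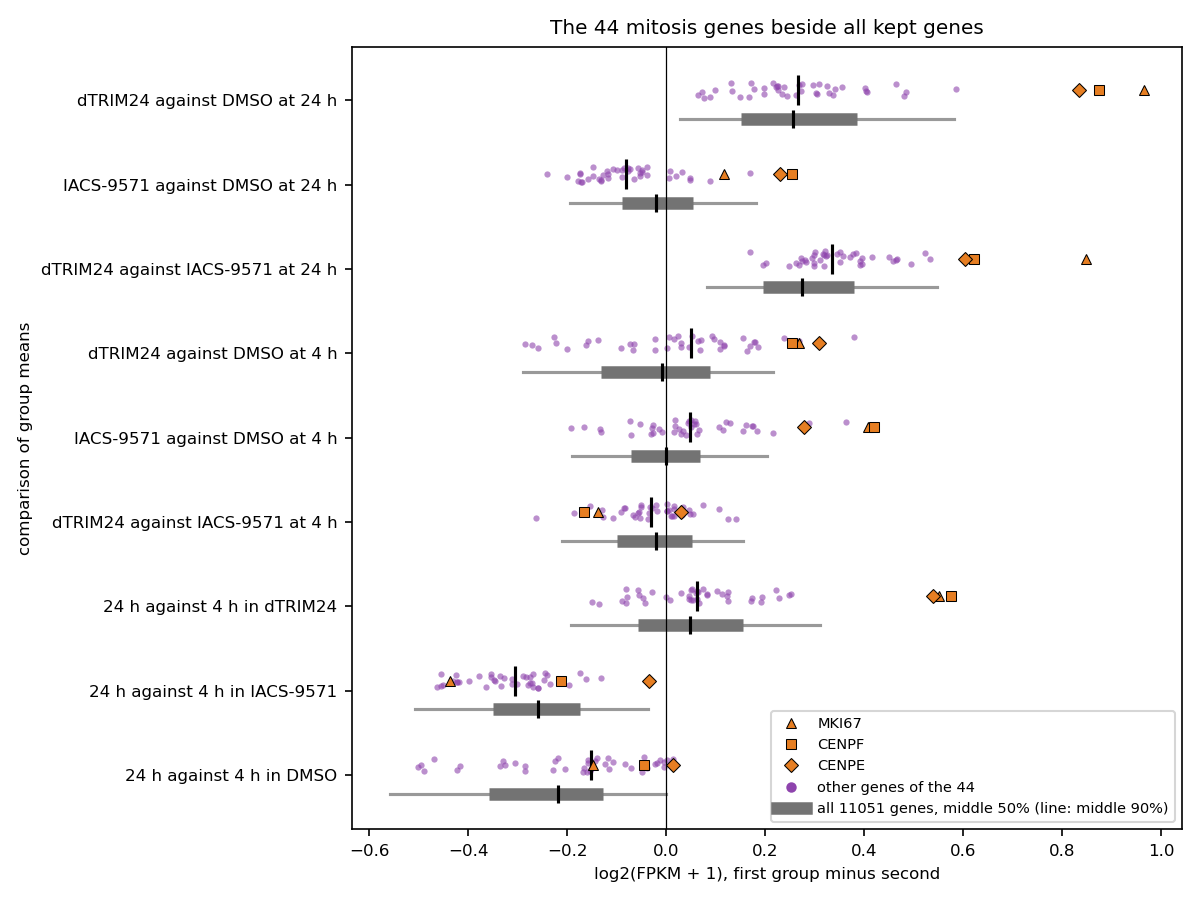
Differences of log2(FPKM + 1), first group minus second, in the 9 comparisons (rows): the 44 genes as points with their median as a black bar, and below them all kept genes as a grey box (middle 50%) and line (middle 90%). In the top row MKI67, CENPF and CENPE lie at 0.83 to 0.97, apart from the other 41 genes at 0.06 to 0.59.

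Between the 2 times the groups parted. In dTRIM24 the 24 h values were above the 4 h values for 32 of 44 members (61.4% of kept genes), with a median of 0.06 and with CENPF (0.58), MKI67 (0.55) and CENPE (0.54) past the mild threshold (4.54% of kept genes). In IACS-9571 all 44 lay below their 4 h values (97.0% of kept genes), with a median of -0.31 and 20 past the mild threshold downward (31.0%); under median centring 26 lay below and 18 above. In DMSO 41 of 44 lay below (95.0% of kept genes), with a median of -0.15 and 9 past the mild threshold downward (30.6%), but under median centring the median was 0.12 and 32 lay above. No member passed 2-fold between the times, while of kept genes 0.0452% did upward and 0.624% downward in dTRIM24, 0.00905% and 0.434% in IACS-9571, and 0.163% and 0.0543% in DMSO. The 24 h value was lower than the 4 h value in both IACS-9571 and DMSO but higher in dTRIM24 for 30 members (56.9% of kept genes), and dTRIM24 at 24 h was the highest of all 6 groups for 22 (34.5%). AURKB and CDC20 had the lowest differences in DMSO, at -0.50 and -0.50. HMMR (0.01) and CENPE (0.01) lay at their 4 h value. AURKB (55.6% GC) and CDC20 (57.9%) are among the members richest in GC, and HMMR (36.7%) and CENPE (35.3%) among the poorest. For 24 h against 4 h in DMSO, the Spearman correlation with GC content was -0.86 over the members and -0.72 over 10771 kept genes. In IACS-9571 these correlations were -0.65 and -0.44, and in dTRIM24 they were 0.27 and 0.61.

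Of the 131 other mitosis genes in 7 lists (inner kinetochore, other checkpoint proteins, anaphase-promoting complex, condensin and cohesin, regulators of these promoters, brakes on CDK1, and centrosome), 130 passed the filter, CDKN1C being the exception. With dTRIM24 against DMSO at 24 h their median was 0.22, 129 lay above 0 (96.8% of kept genes), 4 passed 1.5-fold (4.74%) and none passed 2-fold. List medians ran from 0.18 (inner kinetochore, 28 genes) to 0.31 (centrosome and other spindle proteins, 27 genes). At 4 h their median was 0.04, with 77 of 130 above 0 (47.8% of kept genes). NUMA1, which gathers spindle fibres at the poles, had 14.3 FPKM in dTRIM24 and 8.35 FPKM in DMSO at 24 h, a difference of 0.71. SPC24, the partner of SPC25, had 13.3 FPKM in dTRIM24 and 8.31 FPKM in DMSO (0.62), whereas SPC25 differed by 0.07. CASC5, the kinetochore scaffold also called KNL1, had 12.8 FPKM in dTRIM24 and 8.54 FPKM in DMSO (0.54). UBE2S, which extends the ubiquitin chains that UBE2C starts, had 84.0 FPKM in dTRIM24 and 57.4 FPKM in DMSO (0.54). With the GC trend taken out the differences were 0.32 for NUMA1, 0.31 for SPC24, 0.38 for CASC5 and 0.20 for UBE2S. Other large differences shrank more. PKMYT1 (0.57), MAD1L1 (0.54) and FZR1 (0.53) stood at 0.08, 0.10 and 0.07 with the trend taken out. At 4 h the genes farthest from DMSO with dTRIM24 were ANAPC11 (-0.34) and NCAPH2 (-0.30), at -0.23 and -0.15 with the trend taken out.

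The regulators of the promoters were measured too. FOXM1, the factor that turns these genes on in G2, had 27.7 FPKM in dTRIM24, 17.6 FPKM in IACS-9571 and 19.4 FPKM in DMSO at 24 h, and 23.3 FPKM in dTRIM24, 24.4 FPKM in IACS-9571 and 25.1 FPKM in DMSO at 4 h. MYBL2, which joins the MuvB core before it, had 102 FPKM in dTRIM24, 67.4 FPKM in IACS-9571 and 78.3 FPKM in DMSO at 24 h, and 91.9 FPKM in dTRIM24, 99.8 FPKM in IACS-9571 and 111 FPKM in DMSO at 4 h. LIN54, the MuvB subunit that binds TTTGAA, had 5.06 FPKM in dTRIM24, 4.05 FPKM in IACS-9571 and 4.39 FPKM in DMSO at 24 h, and 5.23 FPKM in dTRIM24, 5.24 FPKM in IACS-9571 and 4.70 FPKM in DMSO at 4 h. FOXM1 was highest in dTRIM24 at 24 h and MYBL2 in DMSO at 4 h. FOXM1, MYBL2 and LIN54 each were lowest in IACS-9571 at 24 h. Of kept genes, 34.5% were highest in dTRIM24 at 24 h and 55.4% lowest in IACS-9571 at 24 h. With dTRIM24 against DMSO at 24 h, FOXM1 differed by 0.50, MYBL2 by 0.38 and LIN54 by 0.17. With the GC trend taken out these differences were 0.16, -0.03 and 0.01.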

How the data were processed

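RNA of 18 MOLM-13 samples was sequenced on an Illumina NextSeq, with ERCC spike-ins added according to cell number, per the labels' protocols. The authors deposited FPKM as 1 mean for each of 6 groups. TopHat2, Cuffnorm and hg19 are named in the submitters' processing notes, with no versions. Which annotation was used, and whether strand was, is not stated. Of 23713 rows, 92 spike-ins and 1721 small RNAs were left out, and a gene was kept where at least 1 group reached 1 FPKM (11051 genes). The call was 2-fold on log2(FPKM + 1). Since only group means were given, the planned limma test was replaced by these differences, with no p-value. GC content and length came from the longest protein-coding GENCODE 29 transcript, or from the longest of any type where a gene had none. Genes were matched by symbol or older symbol (10771 genes, 97.5%). That annotation is of another build than hg19, and promoters came from RefSeq GRCh38.p14. Bins of GC content and length held only genes with a protein-coding transcript. Shared exon sequence was read from GENCODE 29 (12 members on the opposite strand, 3 on the same). The members, lists and tests were chosen with earlier results of these data known. All members are named. Of each other list, those named come from the 3 genes with the largest difference between dTRIM24 and DMSO at either time, and FOXM1, MYBL2 and LIN54 were added as regulators. The steps were tested on simulated data. The tools were numpy 2.4.6, scipy 1.17.1, pandas 2.3.3 and matplotlib 3.10.9 under Python 3.11.15.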

Additional observations from a re-analysis of the deposited data

How the results depend on the processing

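With dTRIM24 against DMSO at 24 h, 1 member (CENPE) passed 2-fold at a pseudocount of 0.1 FPKM and 1 (MKI67) with columns rescaled to the spike-ins, against 0 as deposited; 4 passed 1.5-fold and 15 the mild threshold of 0.32 on the log2 scale. The member median there (0.27) was -0.023 under median centring, 0.0061 under quantile normalization and 0.042 with the GC trend taken out. For dTRIM24 against IACS-9571 at 24 h, 3 passed 1.5-fold and 24 the mild threshold, and the median (0.34) was 0.034 under centring, 0.022 under quantile normalization and 0.103 with the GC trend out. The mild threshold gave 1 member for dTRIM24 against DMSO at 4 h, 3 for IACS-9571 against DMSO at 4 h and 3 for 24 h against 4 h in dTRIM24. For 24 h against 4 h in IACS-9571 it gave 20 downward, and the median (-0.31) was -0.028 under centring, -0.0050 under quantile normalization and -0.076 with the GC trend out. For 24 h against 4 h in DMSO it gave 9 downward, and the median (-0.15) had the opposite sign under centring (0.115) and quantile normalization (0.114) and was -0.015 with the GC trend out, with 19 members above 0 and 25 below. Centring removes by construction the shift of all genes; the cause of the other changes was not tested. A pseudocount of 0.5, no filter and a floor of 5 FPKM left the counts past 2-fold as they were and moved each median by less than the SD of the spike-in differences in its comparison. No paired analysis was possible because the table holds 1 mean per group and no value per library; leaving out a replicate was not run for the same reason. Depth is unknown, so no limit of detection can be given.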
